A study of Mus musculus with 10 samples.

Results

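Arginine and polyamine metabolism was followed through 10 of the 55573 genes of a count table of mouse bone marrow B cells, sorted by how much of a fluorescent histone they had kept. The set was built around Ass1, which drew attention because its RNA differed between the sorted groups, and the other 9 genes (Asl, Arg2, Odc1, Srm, Sms, Amd1, Sat1, Oaz1 and Azin1) were added for their role in the pathway. Ass1 is therefore described with no test. Genes were found by matching Ensembl identifiers to symbols of the GENCODE M21 annotation of GRCm38 (mm10), and all 10 were found.

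The 10 libraries came from bone marrow B cells of mice of the genotype PAX5-ELN H2B-GFP, given doxycycline, with a labelled time of 35 days. PAX5-ELN joins the B-lineage transcription factor PAX5 to elastin and is known from B-cell acute lymphoblastic leukemia, and H2B-GFP is a fluorescent histone that thins out with each division. Sorting gave 5 H2B-GFP high libraries (GFP high in the plots), labelled quiescent, and 5 H2B-GFP low libraries (GFP low), labelled proliferating. Both groups carry the fusion, the tagged histone and the treatment, so no comparison with healthy cells is made. The promoters of the transgenes, the ages of the mice and whether cells of several mice were pooled are not given in the sources used here.

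Arginine can be made inside cells from citrulline: argininosuccinate synthase (Ass1) joins citrulline to aspartate, and argininosuccinate lyase (Asl) splits the product into arginine and fumarate. Arginase turns arginine into ornithine, and ornithine decarboxylase (Odc1) turns ornithine into putrescine, the first polyamine. Spermidine and spermine are then built by adding aminopropyl groups, and these polyamines bind nucleic acids and are required for growth and translation. Odc1 is a classical target of MYC, and its protein is held in check by antizymes, which are themselves titrated by antizyme inhibitors.

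Total counts were 11347097 to 13838769 in H2B-GFP high libraries and 10640894 to 14858520 in H2B-GFP low libraries. Of the 8 B progenitor markers, 4 rose in H2B-GFP high and 0 fell, and Cd79a was at 1991 ± 257 CPM (counts scaled by library size) in H2B-GFP high and 1505 ± 153 CPM in H2B-GFP low (SD, n = 5 per group). Among 10 monocyte and macrophage markers, whose summed level was 97.2 to 144 CPM in H2B-GFP high and 60.5 to 105 CPM in H2B-GFP low, Csf1r rose, while Adgre1 stayed under 1 CPM on average in both groups. Summed neutrophil, T-cell and NK-cell markers reached at most 9.87 CPM in H2B-GFP high and 7.18 CPM in H2B-GFP low. In the erythroid list Car2 fell and Hbb-bs rose. In the plasma cell list Jchain fell to 0.629 ± 0.408 CPM in H2B-GFP high, against 56.7 ± 23.4 CPM in H2B-GFP low, and Xbp1 and Sdc1 rose. In the stroma and endothelium list Pecam1 rose, with 262 ± 18.9 CPM in H2B-GFP high and 150 ± 14.2 CPM in H2B-GFP low. Cdh5, Col1a1, Lepr and Kitl of that list stayed under 1 CPM on average in both groups, and Cxcl12 did not pass. The part of other cells in the differences below was not tested. Because RNA was measured in bulk, fewer cells expressing a gene and less of its RNA per cell cannot be told apart. CPM is also a share of the counts of a library, so a gene that rose or fell here need not have changed in RNA per cell.

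The consecutive enzymes of arginine synthesis differed in how they compared between the groups, with Ass1 lower in H2B-GFP high and the groups overlapping for Asl. Ass1 (ENSMUSG00000076441, chromosome 2, 31470207 to 31520672, plus strand), the rate-limiting enzyme of arginine synthesis from citrulline, had 117, 52, 64, 60 and 81 counts in H2B-GFP high libraries 1 to 5, against 449, 404, 336, 306 and 446 counts in H2B-GFP low libraries 1 to 5. These were 8.53, 4.53, 4.49, 4.67 and 7.01 CPM in H2B-GFP high and 32.2, 28.6, 32.5, 24.1 and 30.2 CPM in H2B-GFP low. Every H2B-GFP high library lay below every H2B-GFP low library, and the highest of them, libraries 1 and 5, were still far under the lowest H2B-GFP low library. The mean was 5.85 ± 1.84 CPM in H2B-GFP high and 29.5 ± 3.45 CPM in H2B-GFP low (SD, n = 5 per group), and the log2 fold change was -2.33 ± 0.20 (SE), with a mean that is 19.8% of that in H2B-GFP low. Among 9950 genes with a mean of at least 5 CPM, 10 had a log2 fold change this low or lower, Ass1 included. Among all 12772 genes tested the number was 39. Because Ass1 was chosen for this change, nothing is read from its place.

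Some Ass1 reads may have been assigned elsewhere. The processed pseudogene Gm5424 on chromosome 10 holds 38.6% of the distinct 50-base windows of Ass1 transcripts, and it had 270 counts in H2B-GFP high and 655 counts in H2B-GFP low, each summed over 5 libraries. With its counts added to those of Ass1, an alternative chosen after seeing the data, the log2 fold change of Ass1 was -1.96. The promoter of Ass1 is shown because the set was built around this gene. It runs from 250 bases before to 50 bases after the start site (RefSeq, GRCm38.p6, given 5′ to 3′ on the gene's strand), and the capitals mark a CACGTG E-box, the letters bound by MYC with MAX, and a GGGCGG GC box, the letters bound by SP1.
Ass1 promoter, chr2:31470020-31470319, plus strand: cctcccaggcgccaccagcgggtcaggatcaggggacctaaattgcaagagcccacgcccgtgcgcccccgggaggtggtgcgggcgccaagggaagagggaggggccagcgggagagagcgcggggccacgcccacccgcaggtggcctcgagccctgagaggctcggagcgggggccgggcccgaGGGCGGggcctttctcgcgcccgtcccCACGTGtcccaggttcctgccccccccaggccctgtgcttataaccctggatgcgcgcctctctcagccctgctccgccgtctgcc
The E-box begins at -36 and the GC box at -63, counted from the start site. An E-box was found in 7.15% of the 32851 promoter windows of this length that were searched and a GC box in 35.7%, on either strand. The windows of a chromosome that holds none of the members were left out of the search. A match is a description of the letters and does not show binding.

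Asl (ENSMUSG00000025533, chromosome 5, 130011258 to 130029247, minus strand), which acts directly after Ass1, had 28.4, 24.5, 25.4, 31.3 and 32.7 CPM in H2B-GFP high libraries 1 to 5, against 35.1, 21.7, 24.6, 21.2 and 24.8 CPM in H2B-GFP low libraries 1 to 5. The groups overlapped, and H2B-GFP low library 1 stood above the rest of its group. The log2 fold change was 0.16 ± 0.15 and did not pass (adjusted p = 0.477 by the quasi-likelihood test of edgeR, with Benjamini-Hochberg adjustment over 12772 genes). Within a library the ratio of Ass1 counts to Asl counts needs no scaling of library size. It was 0.300, 0.185, 0.177, 0.149 and 0.214 in H2B-GFP high libraries 1 to 5, against 0.916, 1.32, 1.32, 1.13 and 1.22 in H2B-GFP low libraries 1 to 5. All H2B-GFP high ratios lay below all H2B-GFP low ratios, and the lowest H2B-GFP low ratio was that of library 1. The ratio depends on the lengths of the genes too, so only its difference between libraries is described. Because Ass1 was chosen for its change and Asl did not pass, nothing further is read from this separation.

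**Figure D1:**
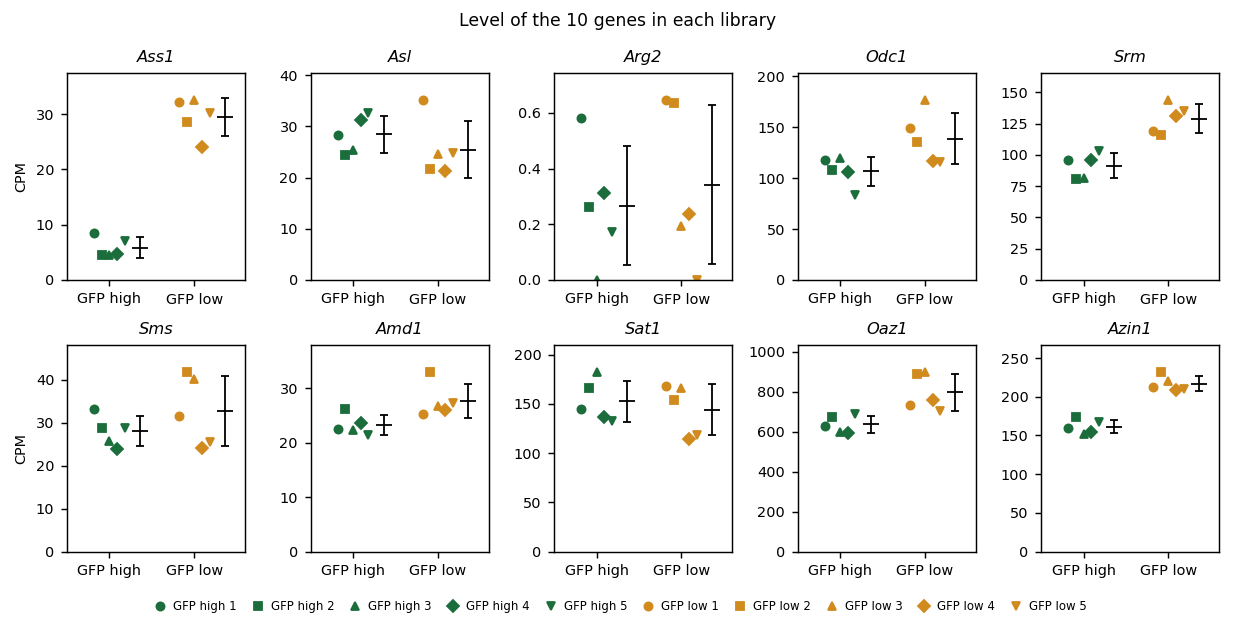
Level in CPM of each of the 10 genes in each library, with H2B-GFP high in green and H2B-GFP low in orange; marker shapes are libraries 1 to 5, and black bars are the mean ± SD of 5 libraries. Ass1, Srm, Oaz1 and Azin1 are the genes whose groups do not overlap, and Ass1 has the widest gap as a ratio, with at most 8.53 CPM in H2B-GFP high and at least 24.1 CPM in H2B-GFP low.

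The rest of the urea cycle was hardly detected. Arg2 (ENSMUSG00000021125, chromosome 12, 79130777 to 79156301), the mitochondrial arginase, had 0 to 8 counts in H2B-GFP high libraries and 0 to 9 in H2B-GFP low libraries, did not pass the filter on low counts and was not tested. Arg1, the cytosolic arginase of liver and macrophages, had 0.456 ± 0.270 CPM in H2B-GFP high and 0.242 ± 0.125 CPM in H2B-GFP low (SD, n = 5 per group) and was not tested either. Cps1 and Nags had 0 counts in all 10 libraries and Otc had 2 counts in H2B-GFP high and 0 in H2B-GFP low. A count of 0 allows up to 0.203 to 0.291 CPM per library (3 counts, counting error only).

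Of the 8 members tested besides Ass1, 0 were higher and 3 lower in H2B-GFP high, namely Srm, Oaz1 and Azin1 (edgeR, adjusted p under 0.05), and these 3 were also the ones whose groups did not overlap. Over all 12772 genes tested 27.5% were called, 12.0% as higher and 15.4% as lower, and since the set was assembled around this contrast nothing is read from the members' share. At an unadjusted p under 0.05 the members' counts were 0 higher and 5 lower, beside 2402 higher and 2596 lower of all 12772 genes. DESeq2 called 0 members higher and 4 lower, where 26.7% of 14793 genes were called, 12.6% as higher and 14.1% as lower. With the replicate number as a block, 0 members were higher and 4 lower, while 41.8% of all genes were called, 20.7% as higher and 21.0% as lower. Groups did not overlap for 20.5% of all genes tested, 7.92% higher and 12.6% lower. The median log2 fold change of the 8 members was -0.29, beside 0.03 for all genes tested.

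In polyamine synthesis spermidine synthase fell in H2B-GFP high, and the genes of the other steps did not pass the test. Odc1 (ENSMUSG00000011179, chromosome 12, 17544794 to 17551505, plus strand), which makes putrescine, had 117, 108, 119, 106 and 83.5 CPM in H2B-GFP high libraries 1 to 5, against 150, 136, 177, 117 and 116 CPM in H2B-GFP low libraries 1 to 5. The H2B-GFP high library was the lower one in 5 of 5 same-numbered pairs, while the groups overlapped, since H2B-GFP high libraries 1 and 3 reached the level of H2B-GFP low libraries 4 and 5. The log2 fold change was -0.38 ± 0.13 and just missed the threshold (edgeR adjusted p = 0.0500002). The call was gained in the fit blocked by replicate number (-0.37, edgeR adjusted p = 0.00119), by DESeq2 (-0.37, adjusted p = 0.0425) and in replicates 1 to 3 alone (-0.40, edgeR adjusted p = 0.0312). Leaving out 1 library moved the edgeR adjusted p between 0.041 and 0.138, with the call gained without H2B-GFP low library 4 or 5.

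The promoter window of Odc1 is shown beside that of Ass1 because it lacks the E-box letters and holds 4 GC boxes, in capitals, where CCGCCC is GGGCGG on the other strand.
Odc1 promoter, chr12:17544623-17544922, plus strand: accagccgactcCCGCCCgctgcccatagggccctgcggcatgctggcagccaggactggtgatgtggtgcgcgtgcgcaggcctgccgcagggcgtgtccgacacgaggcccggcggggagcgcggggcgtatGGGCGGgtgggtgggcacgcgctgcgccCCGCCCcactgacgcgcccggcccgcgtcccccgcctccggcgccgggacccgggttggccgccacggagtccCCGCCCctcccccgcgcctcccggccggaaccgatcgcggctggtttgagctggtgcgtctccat
The absence of an E-box says only that these letters are not in this window. G and C made up 78% of this window and 74% of that of Ass1, beside a median of 52.7% over the windows searched. The share of windows with a GC box was not matched for this. RefSeq windows were matched for 6 of the 10 members, with 2 windows for Sms. CACGTG was found in the window of Ass1 and in 1 window of Sms, and GGGCGG in those of Ass1, Odc1, Amd1 and Sat1 and in the other window of Sms, where 3 of the 4 matches overlap. Neither the ATF4 element TGATGNAA nor the cAMP response element TGACGTCA, searched on both strands, was in any of these windows of members. These 2 elements were found in 3.97% and 1.79% of all windows searched, and Oaz1 held none of the 4 motifs.

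Srm (ENSMUSG00000006442, chromosome 4, 148591503 to 148594993, plus strand), spermidine synthase, fell in H2B-GFP high. It had 95.8, 80.6, 81.5, 96.2 and 103 CPM in H2B-GFP high libraries 1 to 5, against 119, 116, 144, 131 and 135 CPM in H2B-GFP low libraries 1 to 5. The groups did not overlap, and the highest H2B-GFP high library, number 5, lay below the lowest H2B-GFP low library, number 2. The mean was 91.4 ± 9.91 CPM in H2B-GFP high and 129 ± 11.4 CPM in H2B-GFP low (SD, n = 5 per group), and the log2 fold change was -0.50 ± 0.10 (edgeR adjusted p = 0.00225). Replicates 1 to 3 alone gave -0.53, replicates 4 and 5 gave -0.43, and Srm passed in both.

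Amd1 (ENSMUSG00000075232, chromosome 10, 40287458 to 40302186, minus strand) makes the aminopropyl donor used by both polyamine synthases. Its levels were 21.4 to 26.1 CPM in H2B-GFP high and 25.2 to 33.0 CPM in H2B-GFP low, lower in H2B-GFP high in 5 of 5 pairs. The groups overlapped slightly, and the log2 fold change of -0.25 ± 0.11 did not pass (edgeR adjusted p = 0.117). Its counts are uncertain, because 78.1% of its 50-base windows also occur in other genes, mostly in Amd2. Amd2 had 4.44 ± 1.48 CPM in H2B-GFP high and 4.62 ± 1.11 CPM in H2B-GFP low, a log2 fold change of -0.06 ± 0.29 (edgeR adjusted p = 0.909).

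Sms (ENSMUSG00000071708, X chromosome, 157443855 to 157492287, minus strand), spermine synthase, ranged from 23.9 to 33.2 CPM in H2B-GFP high and from 24.1 to 41.8 CPM in H2B-GFP low. The wide H2B-GFP low range came from libraries 2 and 3, which were highest. The log2 fold change was -0.22 ± 0.17 (edgeR adjusted p = 0.370), where replicates 1 to 3 alone gave -0.35 and replicates 4 and 5 gave 0.07. Both Sms and Sat1 are X-linked, and both libraries numbered 3 had 0 counts over 4 Y-linked genes. The other libraries had 817 to 2649 such counts in H2B-GFP high and 293 to 2342 in H2B-GFP low. In each of these other pairs the H2B-GFP low library had fewer, and the reason was not tested. Without both libraries numbered 3 the log2 fold changes were -0.10 for Sms and 0.07 for Sat1.

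Of the genes of polyamine breakdown Paox fell and Sat1 did not pass. The list of other polyamine enzymes and antizymes holds Paox, Smox, Oaz2 and Amd2, and 3 of its 8 genes were tested. By edgeR 0 were higher and 1 lower, with a median of -0.18. The counts were 0 and 2 at an unadjusted p under 0.05 and with the replicate block, and 0 and 1 of 5 by DESeq2. Over all genes tested 12.0% were higher and 15.4% lower by edgeR, 20.7% and 21.0% with the block, and 12.6% and 14.1% by DESeq2. At an unadjusted p under 0.05, 2402 of 12772 genes were higher and 2596 lower. Sat1 (ENSMUSG00000025283, X chromosome, 155213132 to 155216449, minus strand) encodes the acetyltransferase that marks spermidine and spermine for export or oxidation. It had 145, 166, 183, 137 and 133 CPM in H2B-GFP high libraries 1 to 5, against 168, 154, 167, 114 and 119 CPM in H2B-GFP low libraries 1 to 5. The groups overlapped almost fully, with a log2 fold change of 0.08 ± 0.13 (edgeR adjusted p = 0.687). Paox, the oxidase of acetylated polyamines, fell, with 3.47 ± 1.29 CPM in H2B-GFP high and 7.07 ± 1.45 CPM in H2B-GFP low (SD, n = 5 per group) and a log2 fold change of -1.03 ± 0.28 (edgeR adjusted p = 0.0162). Its groups overlapped through H2B-GFP high library 5, and it did not pass in replicates 1 to 3 alone (adjusted p = 0.0547) or 4 and 5 alone (adjusted p = 0.111, both edgeR). Smox, the spermine oxidase, had 0.461 ± 0.166 CPM in H2B-GFP high and 0.482 ± 0.325 CPM in H2B-GFP low and was not tested.

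Both regulators of ornithine decarboxylase protein fell, the antizyme and its inhibitor alike. Oaz1 (ENSMUSG00000035242, chromosome 10, 80826656 to 80829290, plus strand) encodes the antizyme that binds ornithine decarboxylase and sends it to the proteasome. It had 628, 672, 598, 596 and 689 CPM in H2B-GFP high libraries 1 to 5, against 734, 889, 900.1, 757 and 705 CPM in H2B-GFP low libraries 1 to 5. The groups did not overlap, though H2B-GFP high library 5 came close to H2B-GFP low library 5. The mean was 637 ± 42.3 CPM in H2B-GFP high and 797 ± 90.8 CPM in H2B-GFP low (SD, n = 5 per group), and the log2 fold change was -0.32 ± 0.09 (edgeR adjusted p = 0.0137). The call was lost in replicates 4 and 5 alone (-0.20, edgeR adjusted p = 0.0945) or without both libraries numbered 3 (-0.26, edgeR adjusted p = 0.0754).

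Antizyme is made only when ribosomes shift frame at a stop codon, a step that polyamines promote and that RNA counts do not measure. The site is shown for Oaz1 and for its paralog Oaz2, as read 5′ to 3′ from GENCODE M21 transcripts (GRCm38), with TCCTGAT in capitals, which contains the TGA stop codon.
Oaz1 frameshift site, chromosome 10, plus strand: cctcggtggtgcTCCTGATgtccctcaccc
Oaz2 frameshift site, chromosome 9, plus strand: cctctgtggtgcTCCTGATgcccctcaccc
The 2 stretches are identical at 28 of 30 bases. Oaz2 had 112 ± 8.96 CPM in H2B-GFP high and 127 ± 5.29 CPM in H2B-GFP low (SD, n = 5 per group), and the log2 fold change of -0.18 ± 0.08 missed the threshold (edgeR adjusted p = 0.0990) except in the blocked fit (-0.18, edgeR adjusted p = 0.0396).

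Azin1 (ENSMUSG00000037458, chromosome 15, 38487427 to 38519266, minus strand) encodes a relative of ornithine decarboxylase that has no enzyme activity and sequesters antizyme. It had 160, 173, 152, 155 and 167 CPM in H2B-GFP high libraries 1 to 5, against 213, 232, 220.4, 208 and 210.3 CPM in H2B-GFP low libraries 1 to 5. The groups did not overlap and each was tight. The mean was 161 ± 8.88 CPM in H2B-GFP high and 217 ± 9.80 CPM in H2B-GFP low (SD, n = 5 per group), and the log2 fold change was -0.43 ± 0.07, with the smallest adjusted p among the 8 tested members (edgeR, 0.00094). The 5 same-numbered pairs lay between -0.54 and -0.33 on the log2 scale. No 50-base window of Azin1 occurred in another annotated gene, while 21.0% of those of Oaz1, 24.3% of those of Odc1 and 17.5% of those of Sms did. Adding the counts of the closest copy of each, as for Ass1, gave log2 fold changes of -0.32, -0.37 and -0.25, with no call gained or lost.

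**Figure D2:**
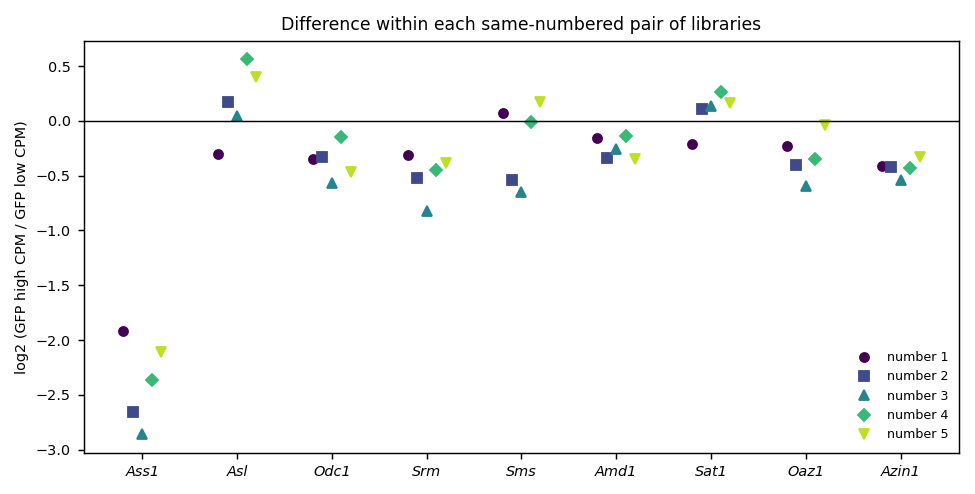
Log2 ratio of the H2B-GFP high to the H2B-GFP low level (CPM) within each same-numbered pair of libraries, for the 9 genes that passed the filter on low counts. All 5 pairs lie below 0 for Ass1, Odc1, Srm, Amd1, Oaz1 and Azin1, with Ass1 between -2.86 and -1.92, while Asl, Sms and Sat1 have pairs on both sides of 0.

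Ratios within a library, chosen after the values were seen and given with no test, set these genes against each other. Odc1 counts per Azin1 count were 0.665 ± 0.111 in H2B-GFP high and 0.640 ± 0.109 in H2B-GFP low (SD, n = 5 per group), and the groups overlapped. Odc1 counts per Sat1 count were 0.703 ± 0.083 in H2B-GFP high and 0.966 ± 0.080 in H2B-GFP low, and here the groups did not overlap. Srm counts per Sat1 count were 0.614 ± 0.142 in H2B-GFP high and 0.922 ± 0.209 in H2B-GFP low, with overlap.

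**Figure D3:**
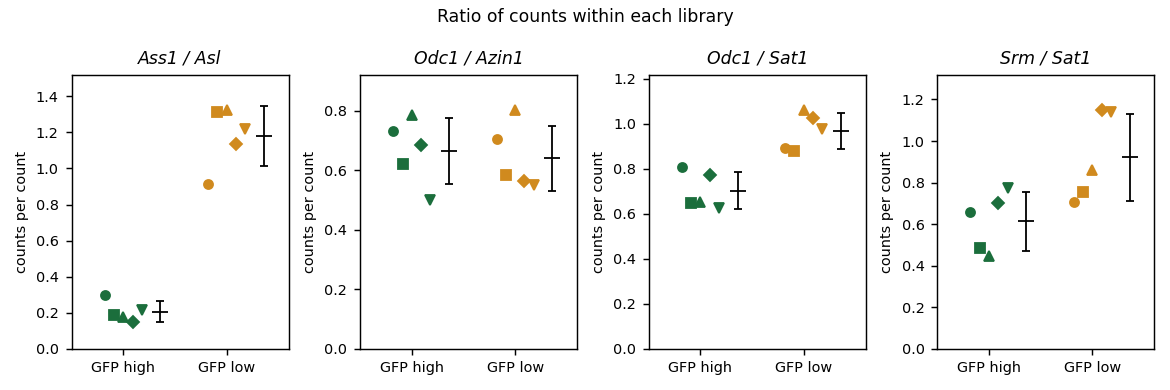
Ratio of the counts of a pair of genes within each library, H2B-GFP high in green and H2B-GFP low in orange, marker shapes for libraries 1 to 5, black bars for the mean ± SD of 5 libraries. The groups are apart for Ass1 to Asl (at most 0.300 in H2B-GFP high and at least 0.916 in H2B-GFP low) and for Odc1 to Sat1, and overlap for the other ratios. Ass1 was chosen for its change, so the separation of its ratio is a description only.

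Per kilobase of exon the order of levels was nearly the same in both groups except for Ass1. The length was that of all annotated exons of a gene, overlaps counted once, so places between genes depend on the annotation too. Oaz1 led with 249 ± 16.5 CPM per kb in H2B-GFP high and 312 ± 35.5 CPM per kb in H2B-GFP low (SD, n = 5 per group). In H2B-GFP high it was followed by Srm (57.2), Sat1 (55.1), Odc1 (31.4), Azin1 (25.8), Amd1 (6.55), Asl (5.89), Sms (4.68), Ass1 (2.42) and Arg2 (0.186 CPM per kb). In H2B-GFP low the order was Srm (80.7), Sat1 (52.0), Odc1 (40.8), Azin1 (34.6), Ass1 (12.2), Amd1 (7.80), Sms (5.44), Asl (5.28) and Arg2 (0.240 CPM per kb). Ass1 thus stood in place 9 of 10 in H2B-GFP high and place 6 of 10 in H2B-GFP low. Neighbours whose ranges overlapped were Srm and Sat1, Odc1 and Azin1, Amd1 and Asl, and Asl and Sms in H2B-GFP high, and Sat1 and Odc1, Odc1 and Azin1, and Sms and Asl in H2B-GFP low.

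How the members varied among replicates was described by their deviations from the group means over the 10 libraries, on the log2 CPM scale. Pearson's r was 0.82 between Oaz1 and Azin1, 0.81 between Odc1 and Sat1 and 0.79 between Sms and Oaz1, and lowest between Srm and Sat1 (-0.55). Ass1 had r of 0.45 with Asl, 0.52 with Srm and 0.08 with Odc1. Over 9202 other genes with a mean of at least 5 CPM in each group, those most like Ass1 in this measure were Slc2a3 (r = 0.94), Ntan1 (0.92), Zfp207 (0.92), Ndufa10 (0.92) and Dph3 (0.90). Same-numbered libraries share their deviations in part, so the 10 points are not independent, and r is given with no p. The 5 were picked as the highest of 9202 values, so nothing is read from the height of their r. Of these 5 genes Slc2a3, a glucose transporter (-0.82 ± 0.16, edgeR adjusted p = 0.00199), and Ndufa10, a subunit of respiratory complex I (-0.50 ± 0.09, edgeR adjusted p = 0.00154), fell in H2B-GFP high. Zfp207 fell as well (-0.25, edgeR adjusted p = 0.0309) and lost the call in 9 of 19 alternatives, while Ntan1 and Dph3 did not pass.

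The related genes were grouped into 7 lists by their role. Of 81 names 80 were found and 57 tested, of which 8 rose, 13 fell and 36 did not pass (edgeR), with 13 higher and 20 lower in the fit with the replicate block. Beside these counts stand the shares of all genes tested, 27.5% called (12.0% higher and 15.4% lower). With the block the share was 41.8% (20.7% higher and 21.0% lower), and by DESeq2 26.7% of 14793 genes (12.6% higher and 14.1% lower). At an unadjusted p under 0.05, 2402 of 12772 genes were higher and 2596 lower. These shares and counts apply to each list below. The median log2 fold change of the 57 related genes was -0.10, beside 0.03 for all genes tested.

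Among arginine, ornithine and proline enzymes 2 of 9 tested genes rose, 2 fell and 5 missed the threshold (2 higher and 4 lower at an unadjusted p under 0.05 and with the replicate block), and the median log2 fold change was -0.27. Prodh, which starts proline breakdown, had 2.70, 4.88, 5.75, 3.11 and 3.12 CPM in H2B-GFP high libraries 1 to 5, against 0.143, 1.27, 1.26, 1.02 and 0.271 CPM in H2B-GFP low libraries 1 to 5. Its groups did not overlap and it rose by a log2 fold change of 2.31 ± 0.52 (edgeR adjusted p = 0.00613). This rests on few counts, with 36 to 82 per library in H2B-GFP high and 2 to 18 in H2B-GFP low. Pycrl, a reductase of proline metabolism, fell (-0.56 ± 0.11, edgeR adjusted p = 0.00244). Gatm, which uses arginine in creatine synthesis, fell (-1.49 ± 0.48, edgeR adjusted p = 0.0373) on few counts, with 2 to 12 per library in H2B-GFP high and 12 to 38 in H2B-GFP low, and kept the call in 2 of the 10 fits that left out a library, those without H2B-GFP high library 2 or H2B-GFP low library 1 (edgeR adjusted p between 0.0285 and 0.106 over the 10). It was lost in 12 of all 19 alternatives. Oat, which interconverts ornithine and a proline precursor, had 182 ± 25.6 CPM in H2B-GFP high and 225 ± 30.0 CPM in H2B-GFP low (-0.31 ± 0.12, edgeR adjusted p = 0.0768), and passed with the block (-0.30, edgeR adjusted p = 0.00597).

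Of 10 tested genes of arginine and polyamine transport 1 rose, 0 fell and 9 missed the threshold (edgeR, with 1 higher and 1 lower at an unadjusted p under 0.05, 1 and 0 by DESeq2, and 3 and 2 with the replicate block), with a median log2 fold change of 0.04. Atp13a2, a lysosomal polyamine exporter, rose, with 204 ± 10.9 CPM in H2B-GFP high and 166 ± 12.4 CPM in H2B-GFP low (SD, n = 5 each, log2 fold change 0.30 ± 0.08, edgeR adjusted p = 0.0127), and did not pass in replicates 4 and 5 alone (0.21, edgeR adjusted p = 0.103). Slc7a1, the main cationic amino acid transporter, had 20.4 ± 2.27 CPM in H2B-GFP high and 26.4 ± 4.61 CPM in H2B-GFP low (-0.37 ± 0.14, edgeR adjusted p = 0.0747), and passed only in the blocked fit among the 19 alternatives (-0.36, edgeR adjusted p = 0.0361).

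In the methionine cycle and salvage list, which supplies the aminopropyl donor and recycles its by-product, 1 of 12 tested genes rose, 4 fell and 7 missed the threshold (1 higher and 6 lower with the replicate block), and the median was -0.17. Ahcy, which clears S-adenosylhomocysteine, fell to 17.2 ± 3.19 CPM in H2B-GFP high, against 36.9 ± 5.91 CPM in H2B-GFP low (-1.10 ± 0.15, edgeR adjusted p = 0.000248). Mat2b, a regulatory subunit of the S-adenosylmethionine synthetase, rose (0.32 ± 0.07, edgeR adjusted p = 0.00491), while the catalytic Mat2a did not pass (-0.15 ± 0.26, edgeR adjusted p = 0.708) except with the block (-0.14, edgeR adjusted p = 0.0460). Mtap, which salvages the by-product of both polyamine synthases, had a log2 fold change of 0.05 ± 0.16 (edgeR adjusted p = 0.841). Both Mat2a and Mtap were named after their values were seen.

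In the hypusine list 1 of 4 tested genes fell and 0 rose (edgeR, with the same counts at an unadjusted p under 0.05, by DESeq2 and with the replicate block), with a median of -0.35. The gene that fell was Eif5a, the translation factor that carries hypusine, a residue made from spermidine. It had 1106 ± 96.7 CPM in H2B-GFP high and 1697 ± 100.4 CPM in H2B-GFP low (SD, n = 5 each, -0.62 ± 0.07, edgeR adjusted p = 7.59e-05), and its groups did not overlap. The enzymes that make hypusine did not pass, Dhps with -0.09 ± 0.15 and Dohh with -0.36 ± 0.18 (edgeR adjusted p = 0.701 and 0.151).

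Of 9 tested genes of protein arginine methylation 2 rose, 3 fell and 4 missed the threshold, the same counts as with the replicate block, around a median of -0.04. Prmt1, the main asymmetric arginine methyltransferase, fell (-0.45 ± 0.09, edgeR adjusted p = 0.00287), as did Prmt5 and Prmt7. Prmt2 rose, with 11.4 ± 2.28 CPM in H2B-GFP high and 4.19 ± 1.80 CPM in H2B-GFP low (1.43 ± 0.30, edgeR adjusted p = 0.00363), and Ddah2, of the family that breaks down methylated arginine, rose as well (0.45 ± 0.10, edgeR adjusted p = 0.00470).

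Of 10 known regulators of member genes 2 rose, 2 fell and 6 missed the threshold, around a median of 0.14. The counts were 3 higher and 2 lower at an unadjusted p under 0.05, and 5 higher and 2 lower with the replicate block. Max, the partner of MYC, rose (0.37 ± 0.09, edgeR adjusted p = 0.00712) and Trp53 fell (-0.35 ± 0.09, edgeR adjusted p = 0.0159). Max lost the call in replicates 1 to 3 alone (edgeR adjusted p = 0.0649), as did Trp53 (edgeR adjusted p = 0.0682), which also lost it without both libraries numbered 3 (edgeR adjusted p = 0.0700). Myc had 378, 218, 259, 378 and 425 CPM in H2B-GFP high libraries 1 to 5, against 346, 175, 244, 294 and 316 CPM in H2B-GFP low libraries 1 to 5. Its groups overlapped, with library 2 the lowest of both, and the log2 fold change of 0.27 ± 0.21 did not pass (edgeR adjusted p = 0.359), while in the blocked fit it was 0.26 and did (edgeR adjusted p = 0.00551). Cebpb rose (1.21 ± 0.37, edgeR adjusted p = 0.0309) and lost the call without H2B-GFP high library 1 or 3 or H2B-GFP low library 3 or 4 (edgeR adjusted p between 0.0538 and 0.0736), in replicates 4 and 5 alone (edgeR adjusted p = 0.139) and without both libraries numbered 3 (edgeR adjusted p = 0.106). Atf4, an amino acid stress factor, had a log2 fold change of 0.06 ± 0.35 (edgeR adjusted p = 0.915) with a wide spread in both groups.

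**Figure D4:**
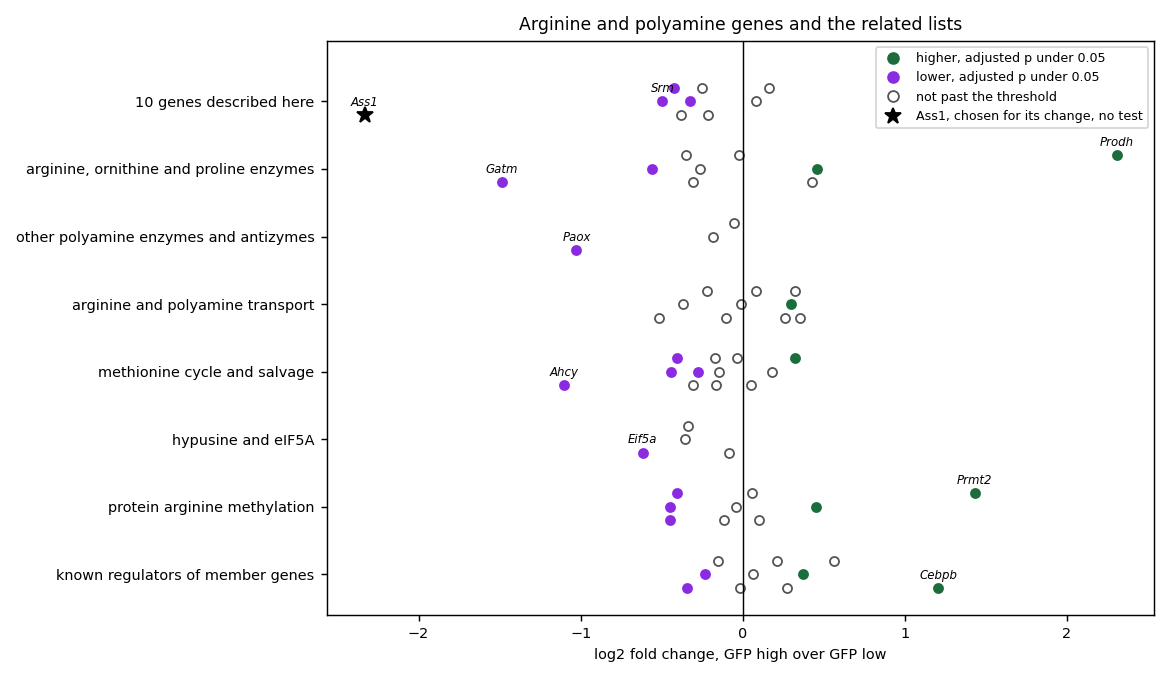
Log2 fold change of H2B-GFP high over H2B-GFP low for every tested gene of the set (top row) and of the 7 related lists, filled where the adjusted p is under 0.05 (edgeR), with green for higher and purple for lower; the star is Ass1, which was chosen for its change and has no test. Ass1 lies at -2.33, the other members lie between -0.50 and 0.16, and related genes spread to both sides, from Gatm at -1.49 to Prodh at 2.31.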

How the data were processed

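RNA of 5 H2B-GFP high and 5 H2B-GFP low libraries was measured as whole-number read counts per Ensembl gene, which the authors deposited in 1 table without normalization. The submitters' processing notes name mm10, STAR, featureCounts and DESeq2, with no role or setting. The handling of strand and of reads with several matches is not stated in any source used here. Of the identifiers 99.833% matched GENCODE M21.

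Counts were tested with edgeR 4.0.16 (filterByExpr, TMM scaling, quasi-likelihood test without covariates), adjusted by Benjamini-Hochberg over 12772 genes at a threshold of 0.05, and as an alternative with DESeq2 1.42.0. Each log2 fold change is positive where H2B-GFP high is higher. Same-numbered libraries deviated together (correlations 0.248 to 0.353), so the number was used as a block in an alternative. Between the groups, the highest correlation with another number was 0.113 for number 1 and 0.180 for numbers 2 and 3. For numbers 4 and 5 it was 0.321, close to their same-numbered 0.349 and 0.353. The labels do not say which libraries came from separate mice. Both libraries numbered 3 lacked Y-linked counts that the others had, so the libraries are not all repeats of 1 source, but part of the spread behind the p-values may still be technical. Named genes were all members, the 2 with the lowest p of each list, list genes past the threshold that differed at least 2-fold, Myc, Arg1, Smox and Eif5a, and the 5 most like Ass1. Oat, Atf4, Amd2, Dhps, Ddah2, Prmt5, Prmt7, Mat2a, Mtap, Cps1, Nags and Otc were named after their values were seen. The members and lists were chosen with earlier results of these data known. A gene that the naming rule gave is not reported here, though it is in the counts of its list.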

Additional observations from a re-analysis of the deposited data

Results flagged for a closer look

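A gap test (Dixon) set the highest and lowest library of each group against the others, in 68 groups of 5 libraries over 34 genes. It picked out 4 values, and chance gives about 1 in 20 groups. In H2B-GFP low library 1, Asl was at 35.14 CPM against 21.2 to 24.8 CPM in the other H2B-GFP low libraries. In H2B-GFP low library 2, Amd1 was at 33.01 CPM against 25.2 to 27.3 CPM. In H2B-GFP high library 5, Ahcy was at 22.86 CPM against 15.3 to 16.2 CPM. In H2B-GFP high library 2, Smox was at 0.1743 CPM, which is 2 counts, against 0.467 to 0.583 CPM. Without H2B-GFP low library 1 the log2 fold change of Asl was 0.30 (edgeR adjusted p = 0.0973), and without H2B-GFP low library 2 that of Amd1 was -0.18 (edgeR adjusted p = 0.288).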

How the results depend on the processing

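Results were recomputed under 19 other settings, 1 of them (the counts of copies) chosen after seeing the data. With the replicate block 2645 genes were higher in H2B-GFP high, and among related genes 13 were higher and 20 lower. In replicates 1 to 3 alone 8 related genes were lower. Without both libraries numbered 3, 926 genes were higher, 6 related genes were lower, and 2 members were lower. With 1 library left out the ranges were 1189 to 1479 genes higher, 1617 to 1940 lower, 0 members higher and 3 to 4 lower, and 7 to 8 related genes higher and 10 to 14 lower. The sign turned for Asl in replicates 1 to 3 alone (-0.032), for Sms in replicates 4 and 5 alone (0.068) and for Dph3 without H2B-GFP high library 1 (-0.011, with 0.140 without H2B-GFP low library 1 as the highest value), and none of the 3 passed the test in either fit. Ass1 stayed between -2.49 and -2.24 with 1 library left out and was -1.96 with the counts of its pseudogene added. Adding such copies to Odc1, Sms, Amd1 and Oaz1 changed none of their calls. Srm and Azin1 kept their calls in all 19. The replicate block gave a call to Odc1, and among related genes named in the text to Oat, Oaz2, Slc7a1, Mat2a and Myc, and took none from these genes. The causes were not tested. Arg2, Arg1 and Smox were too low for any statement, and Amd1 is limited by the sequence it shares with Amd2.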
